A study of Mus musculus with 2 samples.

Results

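The Cap-Arterial cells of the P15 mouse retina described here are 68 endothelial cells that carry this cluster name among the first 438 P15 cells of the authors' annotation. They were selected by the published cluster name of each cell and the ending of its barcode that marks the P15 library. The copy of the annotation used here is shortened after these 438 P15 cells, so that further P15 cells of this name were not analysed here, and whether the 438 represent the whole library could not be checked. With the P6 cells, 1998 cells had a name. No value of a single gene was used here to select them, but the authors built the clusters from the expression of these same cells. They also filtered cells on *Hbb-bt*, *Neurod1* and *Cd63*, and named clusters by marker genes that include *Gja4* and *Sox17*. Ratios between clusters therefore describe what the name stands for and were not tested.

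Both libraries were made from retinal endothelial cells of wild-type C57BL/6 mice, at P6 and at P15, kept by flow sorting when positive for CD31, found on endothelium, and negative for CD45, found on leukocytes. The number of mice pooled in each library is not given in the sources used here. Each age is 1 library, so cells are not replicates, and age and library cannot be told apart. *Xist*, made in female cells, was detected in 2 of 68 P15 and 26 of 162 P6 Cap-Arterial cells. Y-linked genes were detected in 36 and 34 of these cells. Over all labelled cells these counts were 23 and 217 of 438 at P15, and 279 and 397 of 1560 at P6. The libraries thus also differed in sex-linked genes, and the part of sex in the age ratios was not tested. Reads were counted as unique molecular identifiers (UMIs), 1 for each captured RNA molecule. Levels are given as CPM, in which the UMIs of a gene summed over the cells of a cluster are scaled to the same total for every cluster. Brackets give 95% intervals, exact Poisson for levels, exact conditional binomial for ratios of levels and exact Clopper-Pearson for shares of cells, and they cover counting error only. A gene was counted as higher or lower where its ratio was at least 2-fold, among genes with at least 100 UMIs over the cells compared. A gene reaches this minimum more easily when high in the group with more UMIs. Counts of higher and lower genes therefore do not give a balance of direction.

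Retinal arteries, capillaries and veins form a continuous tube, and endothelial cells change along it. Cells close to arteries carry the gap junction protein connexin 37, encoded by *Gja4*, the transcription factor *Sox17* and the cell cycle inhibitor p57, encoded by *Cdkn1c*. Notch signaling and blood flow are known to promote arterial identity. Retinal capillaries also form the blood-retina barrier, which depends on tight junctions and on transporters that carry glucose, amino acids, lactate and lipids across the cell. The 3 genes named above are the markers given for the Cap-Arterial name, and their levels were checked first.

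*Gja4* lies on chromosome 4 of GRCm38 (127311421 to 127314039, minus strand), *Sox17* on chromosome 1 (4490931 to 4497354, minus strand) and *Cdkn1c* on chromosome 7 (143458339 to 143461050, minus strand). *Cxcl12*, which encodes a chemokine that guides vessel growth, lies on chromosome 6 (117168535 to 117181367, plus strand). The 250 bases before the RefSeq start of *Gja4* and of *Cxcl12* (GRCm38.p6) are shown because these 2 genes had the highest ratios in the Cap-Arterial cells. Capitals mark matches on either strand to the letters TGGGAA (bound by RBPJ, the nuclear partner of Notch), ACAAT (SOX factors), CACCC (KLF factors) or GGCGCC (SMAD factors).
*Gja4*, chr4:127314040-127314289, minus strand: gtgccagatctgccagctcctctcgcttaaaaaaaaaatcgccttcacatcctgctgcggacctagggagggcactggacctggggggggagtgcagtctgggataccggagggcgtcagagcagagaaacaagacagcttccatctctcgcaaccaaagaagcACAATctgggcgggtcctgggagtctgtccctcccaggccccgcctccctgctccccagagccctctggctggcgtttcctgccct
*Cxcl12*, chr6:117168285-117168534, plus strand: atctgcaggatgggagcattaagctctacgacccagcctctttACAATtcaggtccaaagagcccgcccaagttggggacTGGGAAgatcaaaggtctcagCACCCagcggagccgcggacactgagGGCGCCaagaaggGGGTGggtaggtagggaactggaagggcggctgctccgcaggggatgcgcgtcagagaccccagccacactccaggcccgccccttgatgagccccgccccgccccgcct

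The *Gja4* window held 1 match, to the SOX letters, starting 86 bases before the start. The *Cxcl12* window held the RBPJ letters at 170 bases, the SOX letters at 207 bases, the KLF letters at 149 and 110 bases, and the SMAD letters at 123 bases before the start. Over all 32851 RefSeq windows of the same 250 bases, 21.6% held the RBPJ letters, 27.7% the SOX letters, 52.0% the KLF letters and 9.59% the SMAD letters. These are matches of letters, and binding was not measured. The promoter table used here gives no entry for *Sox17* or *Cdkn1c*.

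The 3 markers were higher in these cells than in the other labelled cells, but not every arterial gene was. *Hey1* and *Efnb2* had ratios of 3.63 and 4.62, whereas *Jag1* had a ratio of 1.01 and *Gja5* 0 UMIs. *Gja4* was detected in 39 of 68 Cap-Arterial cells (57.4%, 44.8 to 69.3), against 9 of 134 Cap-Venous cells (6.72%), although the Cap-Venous cells were deeper, with a median of 5180 UMIs against 3919. Its level was 618 CPM in the Cap-Arterial cells and 59.3 CPM in all other labelled P15 cells, a ratio of 10.4 (8.18 to 13.3). *Sox17* was detected in 63 cells (92.6%) at 994 CPM, a ratio of 2.38 (2.07 to 2.72). *Cdkn1c* was detected in 29 cells (42.6%) at 317 CPM, a ratio of 4.45 (3.38 to 5.83). Among cells passing the study's exclusion criteria, which left 64 of the 68, the ratio of *Cdkn1c* was 2.98. When the Arterial cells were left out of the reference, the ratio of *Gja4* was 18.7. Each of the 3 markers was higher still in the 11 P15 Arterial cells, at 1019 CPM for *Gja4*, 1895 CPM for *Sox17* and 611 CPM for *Cdkn1c*.

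At least 1 of the 3 markers was detected in 65 of 68 cells, and all 3 in 19 cells (27.9%, 17.7 to 40.1). The 19 cells with all 3 markers had a median of 5616 UMIs and the rest 3749, so depth moved with this count and its part was not tested. After each cell was thinned to 2000 UMIs, which left 60 cells and dropped 8, *Gja4* was detected in 50% of Cap-Arterial cells, *Sox17* in 76.7% and *Cdkn1c* in 31.7%. The same thinning left *Gja4* in 2.40% of Cap-Venous cells, *Sox17* in 56.8% and *Cdkn1c* in 8%.

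General endothelial genes were within 2-fold of the other labelled P15 cells. All 10 genes of the endothelial identity list had at least 100 UMIs, none differed by 2-fold, and their summed ratio was 1.03 (0.998 to 1.06). Their median ratio was 1.15, and the interval lay above 1 for 5 genes and below 1 for 1 gene. *Cldn5*, a tight junction protein of the barrier, was detected in all 68 cells at 9589 CPM, against 10091 CPM in the other cells. *Cdh5*, the endothelial cadherin, was at 545 CPM against 499.6 CPM (ratio 1.09, 0.919 to 1.29). Of the marker lists of other cell types, the glial list had the highest sum. The astrocyte and Mueller glia list summed to 2851 CPM against 859 CPM (ratio 3.32, 3.05 to 3.61), of which *Glul* gave 2808 CPM. The pericyte and smooth muscle list of 12 genes summed to 165 CPM against 217 CPM, *Pdgfrb* and *Cspg4* had 0 UMIs, and 56.4% of the 39 *Rgs5* UMIs came from 1 cell. The 7 leukocyte markers with a row summed to 9.91 CPM, and *Csf1r* had 0 UMIs. The 10 photoreceptor and neuron markers summed to 119 CPM against 98.5 CPM. Erythroid markers summed to 172 CPM against 177 CPM, and 2 markers at 0, *Hbb-bt* and *Neurod1*, were used by the authors to exclude cells.

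The 68 cells held 302728 UMIs, with a median of 3919 per cell (range 1276 to 11828) and 2016.5 genes (range 881 to 3976). The other 370 labelled P15 cells had a median of 4482 UMIs. Ribosomal protein genes took a median of 8.79% of UMIs in the Cap-Arterial cells and 11.6% in the others, and mitochondrial genes 0.970% and 1.04%. The Cap-Arterial cells were 15.5% of labelled P15 cells (12.3 to 19.3) and 162 of 1560 labelled P6 cells (10.4%). The P15 share is that of the first 438 named cells of a shortened list, and both shares depend on the sort.

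**Figure D1:**
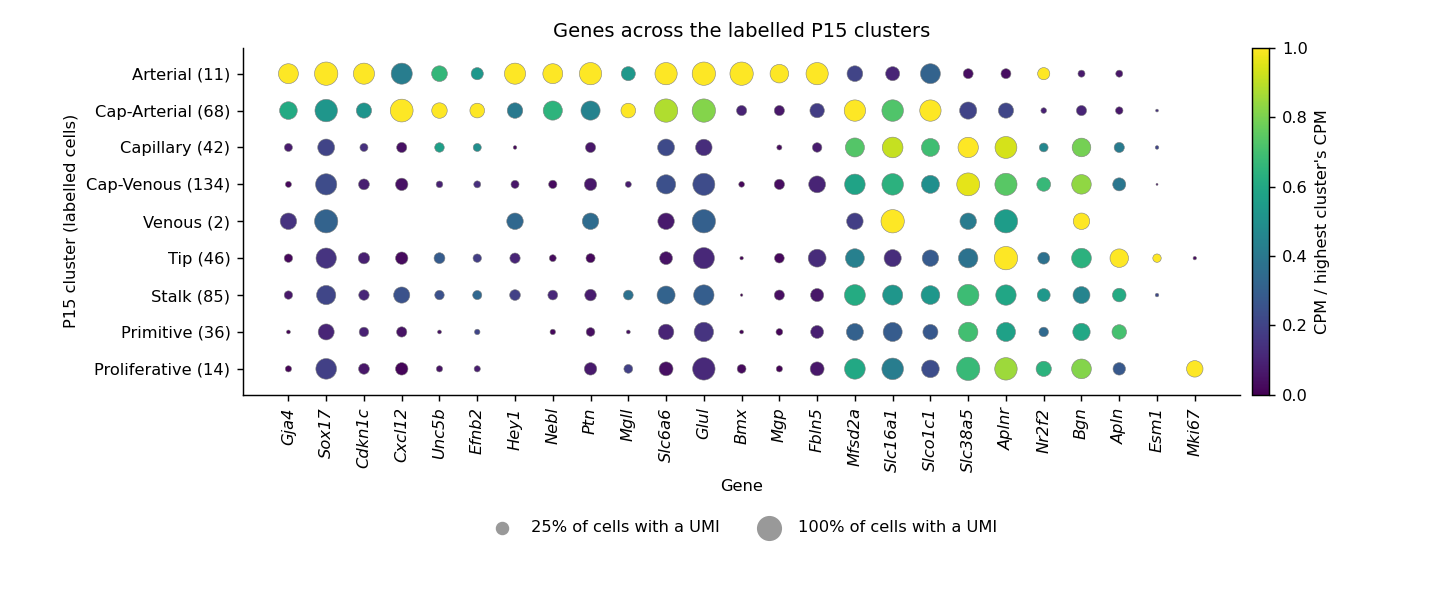
Expression of 25 genes across the 9 P15 clusters, with the number of labelled cells in brackets. Colour is the CPM of a gene divided by its CPM in the cluster where it is highest, and dot area is the percentage of cells with a UMI. *Cxcl12*, *Unc5b*, *Efnb2*, *Mgll*, *Mfsd2a* and *Slco1c1* reached their highest level in the Cap-Arterial cells, whereas *Gja4*, *Sox17*, *Cdkn1c*, *Bmx*, *Mgp* and *Fbln5* reached it in the 11 Arterial cells.

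Against the other 370 labelled P15 cells, 80 of 3695 genes (2.17%) were at least 2-fold higher in the Cap-Arterial cells and 113 (3.06%) at least 2-fold lower, with a median ratio of 1.01 over all genes. The 10 highest ratios were those of *Cxcl12*, *Gja4*, *Nebl*, *Mgll*, *Terf2ip*, *Unc5b*, *Ptn*, *Cdkn1c*, *Slc6a6* and *Srarp*. *Cxcl12* was at 2715 CPM against 261 CPM, a ratio of 10.4 (9.29 to 11.7), and was detected in 65 of 68 cells. *Nebl*, a nebulin family protein of actin filaments, was at 529 CPM against 56.1 CPM (ratio 9.43, 7.32 to 12.2), and its ratio without Arterial cells in the reference was 15. *Mgll*, the lipase that degrades monoacylglycerols, was at 192 CPM against 27.2 CPM (7.04, 4.74 to 10.5). *Ptn*, the secreted growth factor pleiotrophin, was at 749.8 CPM against 146 CPM (5.14, 4.29 to 6.16). *Terf2ip*, a protein bound to telomeres, does not describe the cluster, because 86.1% of its 72 UMIs came from 1 of the 68 cells and its ratio without that cell was 0.793.

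Guidance genes differed in direction. Of the 16 genes of the ephrin and guidance list, 11 had at least 100 UMIs, 3 were at least 2-fold higher and 1 lower, and their median ratio was 1.02. The higher genes were *Cxcl12*, the netrin receptor *Unc5b* (185 CPM against 35.4 CPM, ratio 5.23, 3.59 to 7.59) and the semaphorin *Sema7a* (2.46, 1.55 to 3.81). The arterial ephrin *Efnb2* (ratio 4.62, 2.89 to 7.33) and the semaphorin *Sema3g* (7.89, 4.24 to 14.9) were under the minimum, with 35 and 26 UMIs in the Cap-Arterial cells. The receptors of *Cxcl12* had few counts, with 7 UMIs of *Cxcr4* and 6 of *Ackr3* over the 68 cells. The venous neuropilin *Nrp2* was lower (0.212, 0.0679 to 0.507), and the arterial neuropilin *Nrp1* was at 225 CPM against 239 CPM (0.940, 0.717 to 1.22).

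Among the transcription factors of arterial cells, the list of 10 had 7 with at least 100 UMIs, 3 of them at least 2-fold higher and none lower. These were *Sox17*, the Notch target *Hey1* and *Gata2*. *Hey1* was at 182 CPM against 50.1 CPM (ratio 3.63, 2.55 to 5.12) and was detected in 30 of 68 cells. *Gata2* was at 139 CPM against 69.1 CPM (2.01, 1.38 to 2.87). The other SOXF factors differed from *Sox17*: *Sox18* had a ratio of 1.18 (0.818 to 1.66) and *Sox7* of 0.975 (0.558 to 1.61).

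The Notch pathway genes other than *Hey1* were close to the rest of the cells. Of 15 genes, 9 had at least 100 UMIs, 1 was higher and none lower, with a median ratio of 1.16. The ligand *Dll4* was at 142 CPM against 109 CPM (1.30, 0.916 to 1.82), the ligand *Jag1* at 142 CPM against 140.4 CPM (1.01, 0.715 to 1.40), the receptor *Notch4* at 106 CPM against 64.8 CPM (1.63, 1.07 to 2.43) and the target *Hes1* at 773 CPM against 703 CPM (1.10, 0.952 to 1.26). *Notch1*, with 7 UMIs, and the target *Hey2*, with 0 UMIs, were not measurable at this depth.

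Of the 4 endothelial connexins only *Gja4* was 2-fold higher. *Gja1*, connexin 43, was at 268 CPM against 184 CPM (1.45, 1.13 to 1.86), and *Gjc1* had 14 UMIs. *Gja5*, which encodes connexin 40 of large arteries, had 0 UMIs in the 68 cells, which allows up to 9.91 CPM, and 4 UMIs in all other labelled P15 cells.

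Targets of BMP signaling were higher than in all other labelled P15 cells, whereas a transducer of the same pathway was lower. *Id1* was at 1288 CPM against 452 CPM (ratio 2.85, 2.52 to 3.22) and was detected in 65 of 68 cells. *Id2* was at 291 CPM against 132 CPM (2.20, 1.70 to 2.82) and *Id3* at 1708 CPM against 926 CPM (1.84, 1.67 to 2.04). *Smad1*, which carries the BMP signal to the nucleus, was at 49.5 CPM against 151 CPM (0.328, 0.181 to 0.550), and the receptor *Bmpr2* was at 202 CPM against 108 CPM (1.87, 1.38 to 2.50). Of the 14 genes of this list 13 had a row, 6 had at least 100 UMIs, 2 were higher and 1 lower. The level of the list was not particular to these cells, and its summed ratio to the Arterial cells was 0.986 (0.841 to 1.16). It was 1.83 (1.58 to 2.13) to the Capillary and 2.01 (1.86 to 2.18) to the Cap-Venous cells. The ligands *Bmp2*, *Bmp4* and *Bmp6* had 0 UMIs in the 68 cells.

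In the TGF-beta list, 8 of 14 genes had at least 100 UMIs, 4 were at least 2-fold higher and 1 lower. The higher ones were the type I receptor *Acvrl1* (591 CPM against 295 CPM, ratio 2.0, 1.68 to 2.38), the ligand *Tgfb2* (2.53, 1.69 to 3.74), the inhibitor *Smad7* (2.19, 1.64 to 2.90) and the latency protein *Ltbp4* (2.10, 1.62 to 2.69). The co-receptor *Eng* was at 1093 CPM against 1179.9 CPM (0.927, 0.823 to 1.04). The summed ratio of the list was 0.872 (0.733 to 1.04) to the Arterial cells and 0.924 (0.810 to 1.06) to the Capillary cells. To the Cap-Venous cells it was 1.23 (1.13 to 1.34).

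Of 17 shear and vasoactive genes, 12 had at least 100 UMIs, none was 2-fold higher and 1, *Adm*, was lower, with a median ratio of 1.09. Transcription factors induced by flow were higher by less than 2-fold. *Klf2* was at 3079 CPM against 1679 CPM (1.83, 1.70 to 1.97) and *Klf4* at 393 CPM against 220.4 CPM (1.78, 1.44 to 2.19). The nitric oxide synthase *Nos3* was at 89.2 CPM against 82.7 CPM (1.08, 0.688 to 1.63) and endothelin *Edn1* at 152 CPM against 137 CPM (1.11, 0.791 to 1.52). Immediate early genes, which cell isolation can also induce, had a summed ratio of 1.34 (1.26 to 1.42), with *Fos* at 446 CPM against 310.2 CPM. Their part in the *Klf2* and *Klf4* values was not tested.

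The VEGF receptors had different ratios. The decoy receptor *Flt1* was at 1675 CPM against 796 CPM (2.10, 1.90 to 2.33), and the main receptor *Kdr* was at 462 CPM against 374 CPM (1.24, 1.02 to 1.48). Of the 11 genes of the list 5 had at least 100 UMIs, and *Flt1* was the only one past 2-fold. The summed ratio of the list was 0.876 (0.789 to 0.973) to the Capillary cells and 1.10 (0.943 to 1.29) to the Arterial cells. To the Cap-Venous cells it was 1.46 (1.36 to 1.57). The angiopoietin receptor *Tek* had a ratio of 1.78 (1.33 to 2.36).

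**Figure D2:**
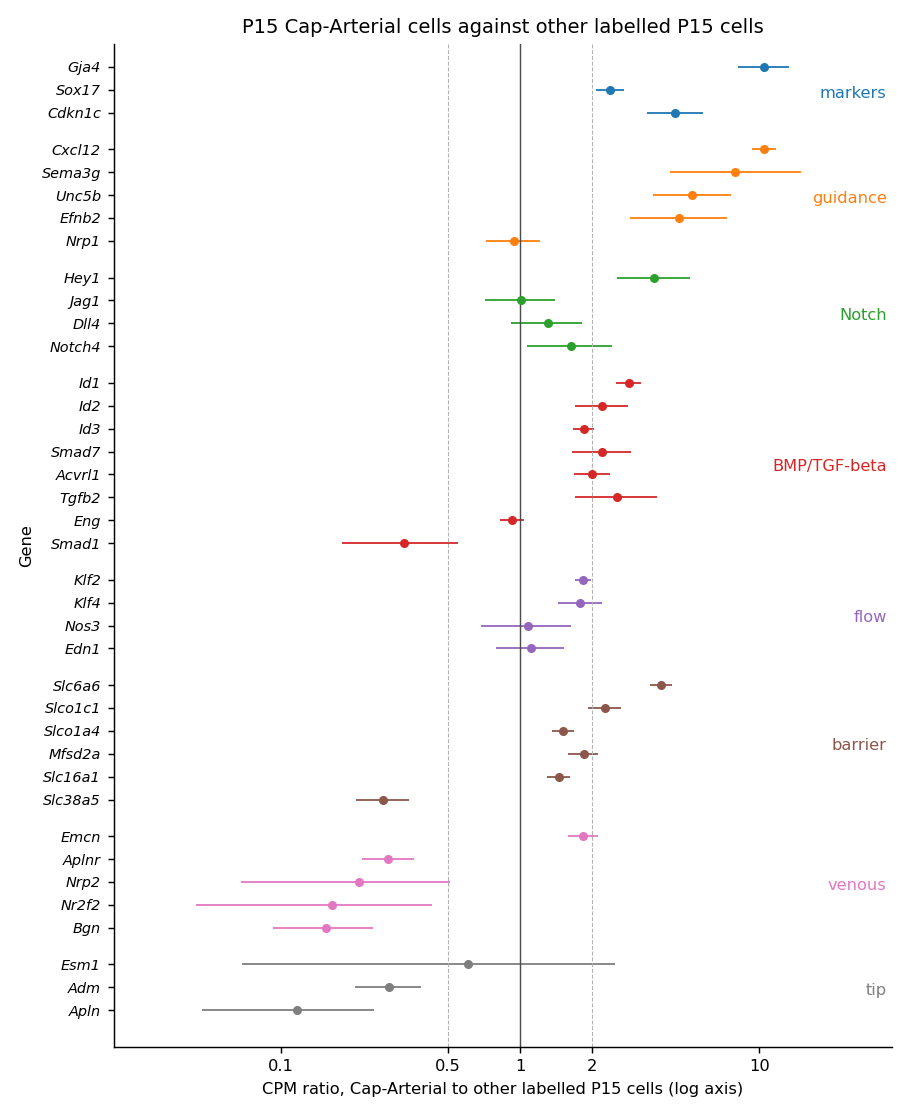
Ratio of the CPM of a gene in the 68 P15 Cap-Arterial cells to that in the other 370 labelled P15 cells, on a log axis, with 95% intervals for counting error. Dashed lines mark 2-fold. *Gja4* and *Cxcl12* lie at 10.4, the *Id* genes between 1.84 and 2.85, and *Smad1* at 0.328, and the venous and tip genes lie below 0.5 with the exceptions of *Emcn* at 1.83 and *Esm1* at 0.607.

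Genes of cell division summed to a lower level than in all other labelled cells, and the intervals of the ratios to Cap-Venous and Capillary cells included 1. *Mki67* and *Top2a*, made in dividing cells, had 0 UMIs in the 68 cells, and *Mki67*, *Top2a* or *Cdk1* was detected in 3 cells. The summed ratio of the S phase and mitosis list was 0.632 (0.535 to 0.741), and of its 5 genes with at least 100 UMIs only *Hmgb2* was 2-fold lower (0.472, 0.304 to 0.705). The reference included the Proliferative cells, in which the list summed to 5956 CPM. It summed to 552 CPM in the Cap-Arterial cells, 495 CPM in Cap-Venous (ratio 1.11, 0.923 to 1.34) and 539 CPM in Capillary cells (1.02, 0.753 to 1.41). Among cell cycle inhibitors *Cdkn1c* was higher, *Cdkn1b*, which encodes p27, was lower (0.361, 0.129 to 0.813, with 6 UMIs), and *Cdkn1a*, which encodes p21, was at 611 CPM against 525 CPM (1.16, 0.990 to 1.36). The antiproliferative genes *Btg1* and *Btg2* had ratios of 1.78 (1.48 to 2.13) and 1.79 (1.48 to 2.15), and the D cyclin *Ccnd2* of 1.69 (1.34 to 2.11).

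Transporters of the blood-retina barrier differed in direction. Of 14 transporters, 13 had at least 100 UMIs, 2 were at least 2-fold higher, 1 was lower, and the median ratio was 1.45. Their summed ratio was 0.960 (0.907 to 1.02) to the Capillary cells and 1.16 (1.12 to 1.20) to the Cap-Venous cells. The taurine transporter *Slc6a6* was detected in all 68 cells, against 56.8% of the other cells, at 1903 CPM against 489.8 CPM (3.88, 3.49 to 4.32). *Slco1c1*, a carrier of thyroid hormone and organic anions, was at 710.2 CPM against 315 CPM (2.25, 1.92 to 2.64). The lysophospholipid carrier *Mfsd2a* was at 813 CPM against 441 CPM (1.84, 1.59 to 2.13), the glucose transporter *Slc2a1* at 2689 CPM against 1702 CPM (1.58, 1.46 to 1.71) and the lactate transporter *Slc16a1* at 1407 CPM against 971 CPM (1.45, 1.30 to 1.61). The glutamine transporter *Slc38a5* was lower, at 218 CPM against 816 CPM (0.267, 0.206 to 0.342), and the related *Slc38a3* was at 122 CPM against 180.1 CPM (0.678, 0.469 to 0.955). *Glul*, glutamine synthetase, was detected in all 68 cells at 2808 CPM against 782 CPM (3.59, 3.30 to 3.91). *Glul* is also abundant in Mueller glia, whose marker *Rlbp1* had 11 UMIs here and a ratio of 0.596 (0.289 to 1.11), while *Gfap* and *Slc1a3* had 0 UMIs.

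Junction and Wnt genes of the barrier were within 2-fold. All 10 of 17 such genes with at least 100 UMIs lay between 0.685 (*Cav1*, caveolin 1) and 1.52 (*Itm2a*), with a summed ratio of 1.12 (1.09 to 1.15). Of 10 measured basement membrane genes of 14, *Col18a1*, the source of endostatin, was higher (3.80, 2.52 to 5.68), and the collagen IV chain *Col4a1* had a ratio of 0.985. Of 9 measured interferon and MHC class I genes of 14, *Ly6c1*, a surface protein of endothelial cells and leukocytes, was higher, at 2748 CPM against 1291 CPM (2.13, 1.96 to 2.30), while *B2m* had a ratio of 1.24. Lipid uptake genes were sparse, and only *Scarb1*, a receptor for lipoproteins, and *Gpihbp1* of 7 genes had at least 100 UMIs, with ratios of 1.44 and 0.501.

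Venous genes were lower as a group. Of the 13 venous genes of the study, 10 had at least 100 UMIs, 6 were at least 2-fold lower and none higher, with a median ratio of 0.336. The 6 were *Bgn* (62.8 CPM against 406 CPM, ratio 0.155, 0.0925 to 0.243), the venous regulator *Nr2f2* (0.164, 0.0441 to 0.429), *Nrp2*, *Slc38a5*, the apelin receptor *Aplnr* (225 CPM against 797 CPM, 0.282, 0.218 to 0.359) and *Tmsb10*, an actin binding peptide (3832 CPM against 9818 CPM, 0.390, 0.367 to 0.414). *Emcn*, named as venous, was instead at 799 CPM against 436 CPM (1.83, 1.58 to 2.12), and *Ctla2a* was at 1698 CPM against 1489 CPM (1.14, 1.04 to 1.25). Of the 17 arterial genes of the study, 9 had at least 100 UMIs, 3 (*Sox17*, *Hey1* and *Acvrl1*) were at least 2-fold higher and none lower, with a median ratio of 1.25. Of its 6 capillary genes, 5 had at least 100 UMIs and 1, the kinase *Sgk1* (2.36), was higher. The study drew these lists from earlier publications, and such genes also served to name the clusters, so their direction is not independent evidence.

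The lowest 10 ratios included those of *Ccn2*, *Trp53i11*, *Chst1*, *Rarres1*, *Apln*, *Stard5*, *Apod*, *Bgn* and *Trf*. *Ccn2*, a matrix protein induced by YAP and TGF-beta, had 1 UMI and was at 81.1 CPM in the others. *Trp53i11*, a gene induced by p53, was at 42.9 CPM against 408 CPM (0.105, 0.0558 to 0.181). *Apln*, the apelin ligand of sprouting cells, was at 23.1 CPM against 197 CPM (0.117, 0.0469 to 0.244), so that ligand and receptor of this pathway were both low. *Adm*, adrenomedullin, was at 139 CPM against 489 CPM (0.284, 0.203 to 0.387), whereas *Igfbp3* of the same tip cell list (7 of 14 genes with at least 100 UMIs, 1 higher and 2 lower) was at 330.3 CPM against 163 CPM (2.03, 1.60 to 2.55).

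The cells were next compared with their neighbours in the same library. Structural genes of the artery wall were lower and barrier transporters higher than in the Arterial cells. Against the 11 P15 Arterial cells, 32 of 593 genes (5.40%) were at least 2-fold higher and 15 (2.53%) at least 2-fold lower. The Arterial cells held 49069 UMIs against 302728 in the Cap-Arterial cells. The minimum thus favoured genes high in the Cap-Arterial cells, and these counts do not give a balance of direction. The artery wall list of 18 genes, 17 with a row, had a summed ratio of 0.177 (0.158 to 0.199), although against all other P15 cells it was 1.34 (1.22 to 1.46), with only *Ltbp4* of 6 genes past 2-fold. Matrix Gla protein *Mgp*, which limits calcification, was at 122 CPM in the Cap-Arterial cells, 1916 CPM in the Arterial, 47.3 CPM in the Capillary and 74.6 CPM in the Cap-Venous cells. The ratio to the Arterial cells was 0.0638 (0.0424 to 0.0943), and 48.6% of the 37 *Mgp* UMIs came from 1 Cap-Arterial cell. *Fbln5*, an elastic fibre protein, was at 307 CPM against 1712 CPM (0.179, 0.132 to 0.244), elastin *Eln* at 112 CPM against 591 CPM (0.190, 0.112 to 0.323), and the arterial kinase *Bmx* at 69.4 CPM against 713 CPM (0.0973, 0.0538 to 0.172). *Eln* and *Bmx* were under the minimum of 100 UMIs in this comparison, with 63 and 56. Among genes at or above it, *Crip1*, *Sat1* and *Cav2* completed the 5 lowest ratios, at 0.227, 0.234 and 0.294. The Notch ligand *Jag1* was at 142 CPM against 856 CPM (0.166, 0.106 to 0.260), also under the minimum, with 85 UMIs.

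The transporters had the opposite order, with a summed ratio of 1.83 (1.65 to 2.04). *Slc16a1* was at 1407 CPM in the Cap-Arterial cells and 204 CPM in the Arterial cells (ratio 6.91, 3.72 to 14.5), beside 1769 CPM in Capillary and 1238 CPM in Cap-Venous cells. *Slc7a5*, the large neutral amino acid transporter, was at 2015 CPM against 326 CPM (6.18, 3.77 to 10.9), and its heavy chain *Slc3a2* at 1906 CPM against 408 CPM (4.68, 3.0 to 7.71). *Mfsd2a* was at 813 CPM against 163 CPM (4.98, 2.49 to 11.7). The iron exporter *Slc40a1* and the peptidoglycan recognition protein *Pglyrp1* had ratios of 5.02 (1.91 to 18.7) and 14.2 (4.81 to 69.3). *Arl5c*, a small GTPase, had the highest ratio, 22.5 (3.98 to 896), but its 139 UMIs lay in 12 of the 68 cells. *Slc6a6* (0.881, 0.715 to 1.09), *Glul* (0.815, 0.690 to 0.967) and *Klf2* (0.910, 0.771 to 1.08) were within 2-fold of the Arterial cells. *Cxcl12* was higher than in the Arterial cells, 2715 CPM against 1141 CPM (2.38, 1.81 to 3.18), and the 11 Arterial cells gave 49069 UMIs in all.

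Against the 134 Cap-Venous cells, 36 of 1994 genes (1.81%) were at least 2-fold higher and 29 (1.45%) at least 2-fold lower. The 5 highest ratios were those of *Gja4* (29.5, 17.7 to 52.6), *Nebl* (22.4, 13.7 to 38.8), *Cxcl12* (21.6, 17.5 to 27.0), *Ptn* (6.74, 5.23 to 8.75) and *Cdkn1c* (6.05, 4.15 to 8.99). The 5 lowest were those of *Bgn* (0.126, 0.0753 to 0.200), *Trp53i11* (0.160, 0.0837 to 0.280), *Apln* (0.161, 0.0631 to 0.342), *Slc38a5* (0.209, 0.160 to 0.269) and transferrin *Trf* (0.210, 0.102 to 0.389). Against the 42 Capillary cells, 43 of 692 genes (6.21%) were at least 2-fold higher and 16 (2.31%) lower, and the median of all genes was shifted by 0.14 on the log2 scale. The Capillary cells held 105729 UMIs against 302728, so here too the minimum favoured genes high in the Cap-Arterial cells. *Gja4* was at 75.7 CPM, *Cxcl12* at 123 CPM and *Slc38a5* at 1088 CPM in those Capillary cells, and at 21.0 CPM, 126 CPM and 1041 CPM in the Cap-Venous cells.

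**Figure D3:**
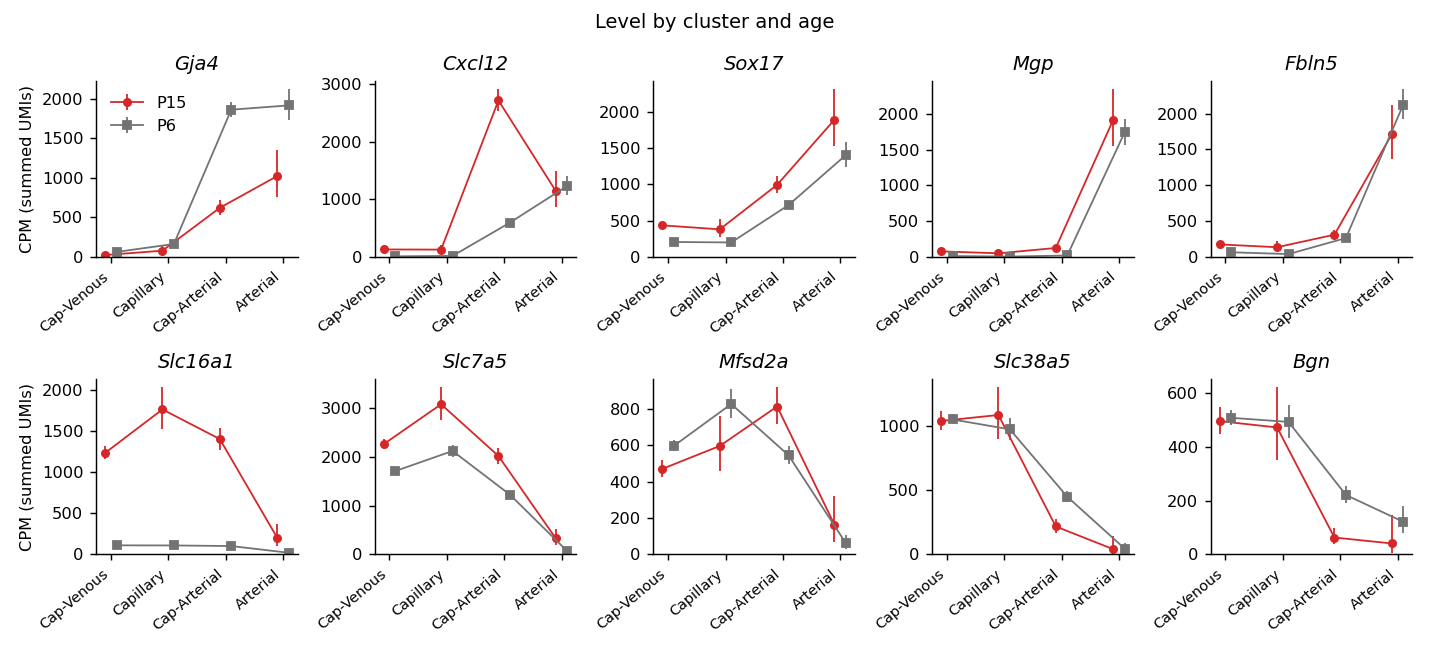
CPM of 10 genes in Cap-Venous, Capillary, Cap-Arterial and Arterial cells at P15 (red circles) and P6 (grey squares), with exact Poisson 95% intervals for counting error. At P15 *Cxcl12* peaked in the Cap-Arterial cells at 2715 CPM, *Mgp* and *Fbln5* were high only in the Arterial cells of those drawn, and *Slc16a1* and *Slc7a5* were lowest in the Arterial cells.

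Values per cell varied over the 68 cells. For each cell, UMIs of the study's 17 arterial genes were taken as a share of the UMIs of its arterial and 13 venous genes together. The venous list summed to 7449 CPM in the Cap-Arterial and 14697 CPM in the other labelled P15 cells, and most of both was *Tmsb10*. The share thus depends largely on this gene. The 68 cells held 1173 arterial and 2255 venous list UMIs in all, so the spread over cells includes counting error, whose part was not tested. The median share was 33.3% in the Cap-Arterial cells, with quartiles of 25.8% and 48.6% and a range of 6.06% to 88.2%. It was 12.6% in Cap-Venous, 14.9% in Capillary and 85.1% in Arterial cells of P15. In 14 of 68 Cap-Arterial cells the arterial genes held over 50% of these UMIs, as they did in all 11 Arterial cells, 2 of 42 Capillary cells, 1 of 85 Stalk cells and none of the 134 Cap-Venous cells.

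UMIs of arterial and venous genes were also found under the same barcode. *Cxcl12* was found together with *Gja4* in 37 cells and without *Gja4* in 28, and only 1 cell had neither. The venous genes *Aplnr* or *Slc38a5* were found in 47 cells (69.1%, 56.7 to 79.8), and *Slc38a5* together with *Gja4* in 20. The artery wall genes *Bmx*, *Mgp* or *Eln* were found in 29 cells. Cells with these genes were deeper, with medians of 4381 UMIs against 3180 for *Aplnr* or *Slc38a5* and 4932 against 3808 for *Bmx*, *Mgp* or *Eln*. Free RNA and doublets can give such pairs too, and *Slc38a5* and *Aplnr* were each detected in 2 of the 11 Arterial cells (18.2%), at a median of 5152 UMIs per cell. Their part in these counts was not tested.

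**Figure D4:**
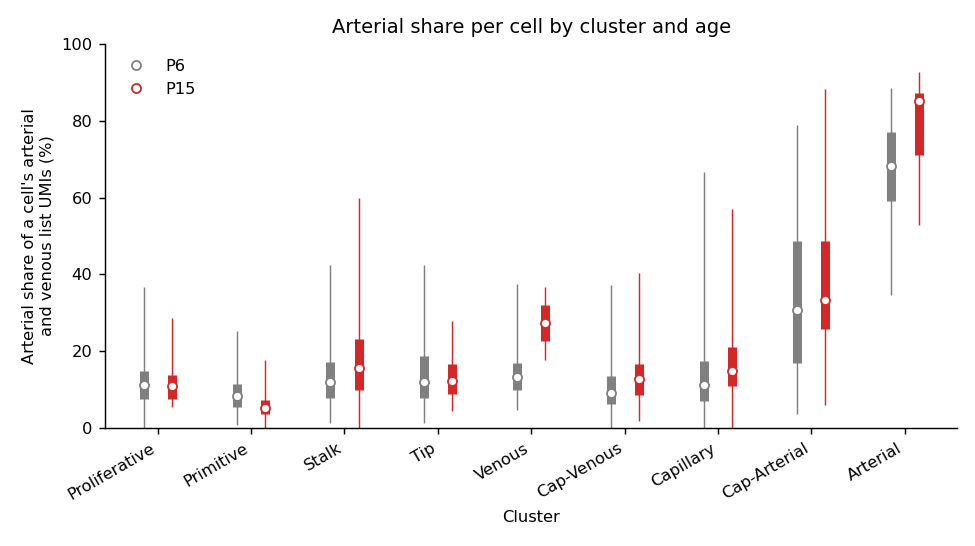
Arterial share of the arterial and venous list UMIs per cell, by cluster at P6 (grey) and P15 (red). Open circles are medians, thick bars quartiles and thin lines the range over cells, and the P15 Venous cluster holds 2 cells. The P15 Cap-Arterial median of 33.3% lies between the Capillary median of 14.9% and the Arterial median of 85.1%. *Tmsb10* gave most of the venous list UMIs of the P15 Cap-Arterial cells and of the other labelled P15 cells.

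The same name at P6 covered 162 cells with 835924 UMIs. The ratio to other labelled cells was 15.6 at P6 for *Gja4* (14.5 to 16.9), 3.77 for *Sox17*, 10.4 for *Cdkn1c*, 17.3 for *Cxcl12*, 9.19 for *Slc6a6* and 7.39 for *Glul*. The other labelled cells differed in make-up between ages, and Proliferative cells were 12.7% of labelled cells at P6 and 3.20% at P15. The part of this in ratios to the other cells, and in their age ratios, was not tested. Between the ages, 87 of 2076 genes (4.19%) were at least 2-fold higher in P15 than in P6 Cap-Arterial cells and 120 (5.78%) at least 2-fold lower. The median ratio was 1.03. Ribosomal protein genes took a median of 8.79% of UMIs at P15 and 17.1% at P6, and their part in these counts was not tested except by scaling. When UMIs of mitochondrial and ribosomal genes were left out of the totals, 64 of the 2076 genes were higher and 168 lower. Of the genes past 2-fold, 27.6% were then higher instead of 42.0%. With predicted names for the unlabelled P15 cells, 171 of 3740 genes were higher and 107 lower, so that 61.5% of those past 2-fold were higher. Predicted names raised the P15 Cap-Arterial cells from 68 to 305, and with them the genes that reached the minimum through P15. These percentages therefore do not give a balance of age changes, and the part of the minimum in them was not tested. Pericyte and smooth muscle markers summed to 12.0 CPM in P6 and 165 CPM in P15 Cap-Arterial cells, erythroid markers to 27.5 CPM and 172 CPM, and photoreceptor and neuron markers to 257 CPM and 119 CPM, and their part in the age ratios was not tested. Immediate early genes had a summed age ratio of 2.48 (2.30 to 2.67), with 5 of 6 measured genes at least 2-fold higher, and their part was not tested either.

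The connexin was lower and the chemokine higher at P15. *Gja4* was at 1859 CPM in P6 and 618 CPM in P15 Cap-Arterial cells, a ratio of 0.332 (0.284 to 0.387), and the ratio over all other labelled cells was 0.499. After thinning to 2000 UMIs per cell, *Gja4* was detected in 76.4% of 161 P6 cells and 50% of 60 P15 cells. *Cxcl12* was at 592 CPM in P6 and 2715 CPM in P15 cells, a ratio of 4.59 (4.10 to 5.14), and was detected after thinning in 50.3% and 86.7% of cells. In the other labelled cells the *Cxcl12* ratio was 7.60, above that of the Cap-Arterial cells, and the quotient of both was 0.603 (0.503 to 0.724). *Sox17* was at 714 CPM and 994 CPM (1.39, 1.21 to 1.60) and *Cdkn1c* at 202 CPM and 317 CPM (1.57, 1.21 to 2.03). *Cdkn1c* was detected in 35.2% of P6 (27.9 to 43.1) and 42.6% of P15 cells (30.7 to 55.2). Its median per cell was 0 CPM at both ages, and 1 P15 cell held 18 of its UMIs. The part of single cells in its age ratio was not tested among cells passing the study's criteria.

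Barrier genes held several of the 10 highest age ratios, which were those of *Gsta4*, *Slc16a1*, *Slco1a4*, *Terf2ip*, *Psmg2*, *Bsg*, *Wfdc1*, *Cxcl12*, *Slco1c1* and *Ly6c1*. *Gsta4*, a glutathione transferase, was at 38.3 CPM at P6 and 647 CPM at P15 (16.9, 11.6 to 25.4). *Slc16a1* was at 102 CPM and 1407 CPM (13.8, 10.9 to 17.7), and *Bsg*, the chaperone that brings lactate transporters to the membrane, at 4768 CPM and 24847 CPM (5.21, 5.01 to 5.42). The organic anion transporter *Slco1a4* was at 136 CPM and 1384 CPM (10.1, 8.23 to 12.6) and *Slco1c1* at 157 CPM and 710.2 CPM (4.53, 3.63 to 5.68). In the other labelled cells the ratios were of similar size for *Slc16a1* (12.8) and *Bsg* (5.62). Of the 14 transporters, 13 had at least 100 UMIs in this comparison, 4 were higher and 1, *Slc38a5* at 449.8 CPM and 218 CPM (0.485, 0.367 to 0.631), was lower. The upper quartile of *Slc38a5* per cell was 627 CPM at P6 and 329 CPM at P15, but its median was 0 and 164 CPM. It was detected in 46.3% of P6 and 54.4% of P15 cells, and after thinning in 36.6% and 33.3%. The lower sum thus reflects cells with high values at P6, not the median cell. The ratio of *Psmg2* (5.84) rested in part on 1 cell that held 35.5% of its UMIs and was 3.83 without it, and that of *Terf2ip* was 0.817 without its 1 cell.

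The 10 lowest age ratios were those of *Aqp1*, *Cd74*, *Plvap*, *Gm29216*, *Nudt4*, *Sox18*, *Col18a1*, *Cotl1*, *Gm11361* and *Dusp2*. *Plvap*, the diaphragm protein of leaky vessels, was at 536 CPM at P6 and 23.1 CPM at P15 (0.0431, 0.0172 to 0.0896), and its ratio in the other cells was 0.0578. *Aqp1*, a water channel, was at 172 CPM and *Cd74*, the invariant chain of MHC class II, at 364 CPM in P6 cells, and both had 0 UMIs in P15 cells. At P6 *Aqp1* was 10.4-fold higher and *Cd74* 6.34-fold higher in the Cap-Arterial than in other labelled cells. *Sox18* was at 841 CPM and 132 CPM (0.157, 0.111 to 0.216), and the basement membrane collagen *Col18a1* at 839.8 CPM and 139 CPM (0.165, 0.118 to 0.226). Of 9 interferon and MHC class I genes with at least 100 UMIs, 2 were at least 2-fold higher and 4 lower at P15, with a summed ratio of 0.983 (0.939 to 1.03). Among those lower, *H2-K1* and *B2m* were at 517 and 1916 CPM at P6 and at 142 and 783 CPM at P15. *Gm29216* and *Gm11361* are predicted genes whose reads may be shared with near-identical copies, and their ratios are uncertain.

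For some genes the age ratio was lower in the Cap-Arterial than in the other labelled cells. The clusters that make up the other cells differed in share between ages, and their part in these quotients was not tested. *Depp1*, a target of FOXO factors, was 11.5-fold higher in Cap-Arterial than in other labelled cells at P6 (8.89 to 15) and 1.89-fold at P15 (1.58 to 2.25). It was at 149.5 CPM in P6 and 568 CPM in P15 Cap-Arterial cells, and the quotient of its age ratios in Cap-Arterial and other cells was 0.164 (0.121 to 0.222). *Slco1a4* was 5.77-fold higher at P6 and 1.52-fold at P15, with an age ratio of 38.7 in the other cells. *Gm45828* (quotient 0.177) lies inside *Slc6a6* on the same strand, and reads of both cannot be told apart. The membrane protein gene *Emp3* and *Trp53i11* had age ratios of 0.238 and 0.390 in the Cap-Arterial cells and 1.44 and 1.69 in the others.

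In the other direction, the quotients were highest for *Terf2ip*, *Srpk1*, *Psmg2*, *Tuba1b* and *Selenoh*. *Tuba1b*, a tubulin abundant in dividing cells, was at 334 CPM in P6 and 386 CPM in P15 Cap-Arterial cells, while its age ratio was 0.436 in the other cells (quotient 2.66, 2.11 to 3.34). Proliferative cells, which are among the other cells, were 12.7% of labelled cells at P6 and 3.20% at P15. The part of this difference in these quotients was not tested. *Selenoh*, a nuclear selenoprotein, had a quotient of 2.43. The splicing kinase *Srpk1* was at 263 CPM and 654 CPM (2.49, 2.04 to 3.03), with 27.8% of its P15 UMIs in 1 cell.

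**Figure D5:**
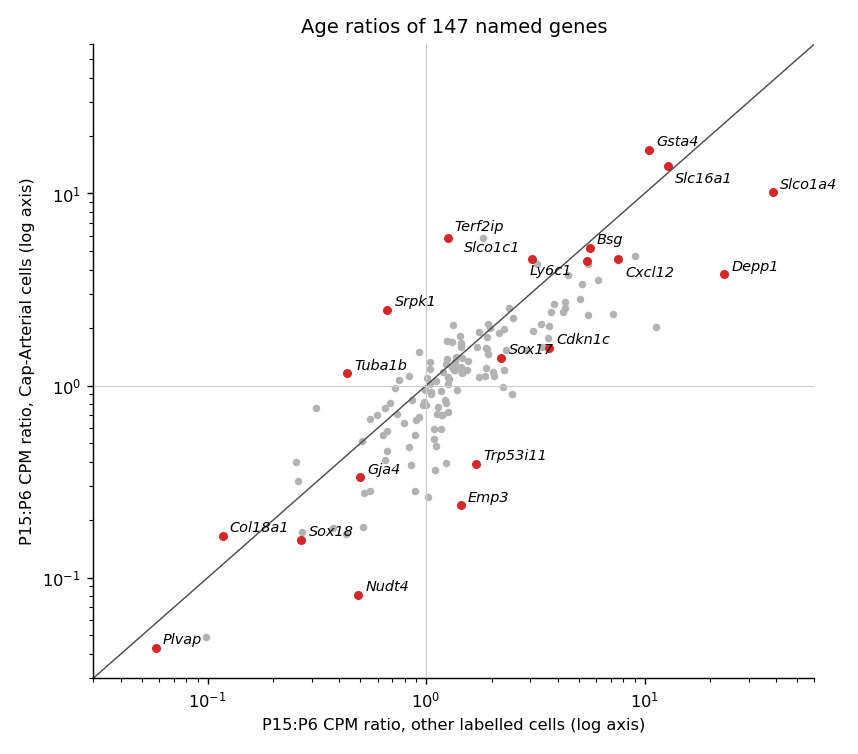
P15 to P6 ratio of CPM in Cap-Arterial cells (vertical) and in the other labelled cells (horizontal), both on log axes, for 147 named genes with at least 100 UMIs in Cap-Arterial cells and a ratio above 0. The diagonal marks equal ratios. *Slc16a1* and *Plvap* lie near it, *Depp1* and *Slco1a4* below it, and *Srpk1* and *Tuba1b* above it.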

How the data were processed

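The input was raw UMI counts, which the authors deposited without normalization as 1 matrix per age, and the cluster name the authors published for each cell. Per the labels the submitters' processing notes name Seurat 3.0 and mm10, and the aligner is not given in the sources used here. In the study's methods cells were filtered on genes, mitochondrial share and the genes *Hbb-bt*, *Neurod1* and *Cd63*, and clustered after integration of both ages. Doublet removal is not given in the sources used here, and no doublet caller was run. Cluster names were used for 1560 P6 and 438 P15 cells, the latter the first of a list that is shortened in the copy used here.

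Gene identifiers were matched to GENCODE M21 symbols and rows of 1 symbol were added. There were 1984 barcodes and 13958124 UMIs at P6, and 2141 barcodes and 11589641 UMIs at P15, with 7 barcodes in both and none of them shared between the Cap-Arterial cells of both ages. Rows without a symbol held 0.0145% and 0.0146% of UMIs. Sums used pandas 2.3.3 and numpy 2.4.6 under Python 3.11.15, intervals used scipy 1.17.1, and nearest neighbours scikit-learn 1.9.0. A count of 0 was bounded at 3 counts. Ratios were also computed on simulated Poisson counts of known fold, drawn from the real sums. The simulated counts had no variation between cells, so they do not show how far single cells move a ratio.

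With 1 library per age no test was made. The cells, the 27 gene lists and the alternatives were chosen with earlier results of these data known. Named genes are list members, the 10 highest and 10 lowest ratios to other labelled P15 cells and between ages, and the 5 highest and 5 lowest to Arterial, to Cap-Venous cells and between age ratios, without *Xist*, *Tsix* and Y-linked genes. A few genes that this rule selects are not reported here. Alternatives changed the minimum (50 or 200 UMIs), the fold (1.5), scaling by the median ratio, thinning to 2000 UMIs, the cells and the totals, and used names predicted from 15 nearest neighbours on 13 principal components of 2000 variable genes.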

Additional observations from a re-analysis of the deposited data

How the results depend on the processing

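No paired analysis was possible because each age is 1 library and no result comes from a test, and for the same reason no replicate could be left out. Of 528 repeated values, 463 moved by less than their interval or, for counts, by less than 1.5 times, 61 moved by more and 4 changed direction. A change of direction was counted only where the main interval excluded 1. Ratios whose main interval included 1, as for endothelial identity and lipid uptake genes, could cross 1 without being counted. Against other labelled P15 cells, 167 of 5833 genes were higher and 294 lower with a minimum of 50 UMIs. With 200 UMIs these were 36 and 46 of 1998, and past 1.5-fold 313 and 326 of 3695. Between ages, 38 of 733 genes were higher and 71 lower after thinning to 2000 UMIs. With predicted names, which added 237 cells, 171 of 3740 were higher and 107 lower. The number of genes tested differed between settings, so these counts do not compare directly. The 4 changes of direction were those of *Terf2ip*, whose ratio to other P15 cells was 0.522 after thinning and 0.793 without its top cell, and whose age ratio was 0.575 and 0.817. Leaving out the top cell was chosen after seeing the data. Summed ratios after thinning were 1.07 for endothelial identity, 1.22 for artery wall, 1.82 for BMP and 1.43 for immediate early genes. The artery wall ratio was 1.15 in cells passing the study's criteria and 1.63 without Arterial cells in the reference, where the study's arterial genes gave 1.72. In cells passing the criteria the ratio of the marker *Cdkn1c* was 2.98, below its interval of 3.38 to 5.83. With predicted names the ratios were 0.990 for endothelial identity, 2.14 for artery wall, 1.87 for arterial, 1.09 for capillary, 0.474 for venous, 1.77 for BMP, 1.22 for barrier transporter, 1.08 for barrier junction, 1.0 for basement membrane, 1.53 for interferon and 0.978 for lipid uptake genes. Of labelled P15 cells, 77.9% were named correctly when held out, and 55 of 68 Cap-Arterial cells. Of the 11 Arterial cells, 6 were named correctly and 5 were named Cap-Arterial, while 0 Cap-Arterial cells were named Arterial. The cells with the predicted name may thus include Arterial cells, whose part in the artery wall and arterial ratios was not tested. With mitochondrial and ribosomal UMIs left out of the totals, the ratios were 0.991 for endothelial identity, 1.11 for capillary, 1.29 for barrier transporter, 1.08 for barrier junction and 1.01 for basement membrane genes. The cause of these shifts was not tested. Depth limits what 68 cells can show, since a gene at 0 UMIs may lie at up to 9.91 CPM, and only counting error is covered by the intervals.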

Other observations

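*Arl5c* was uneven among the P15 Cap-Arterial cells. Its 139 UMIs lay in 12 of 68 cells, and 28.1% of them in 1 cell, at a level of 459 CPM against 231 CPM in the other labelled P15 cells. Among those other cells it was detected in 15.9%, against 17.6% of the Cap-Arterial cells.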
